A study of Rattus norvegicus with 6 samples.

Results

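The genes of DNA damage sensing and repair were followed in HEI-OC1, an immortalised line from the cochlear sensory epithelium, after treatment with an siRNA against Hnrnpd. The members were the rows of the deposited count table whose symbol was on a list of 43 repair genes. The list names genes by function, and it was chosen with earlier results of these data known. A row was found for 42 of the 43 among 18718 rows, and all 42 passed the filter on low counts that left 12268 genes for testing. Chek1, the checkpoint kinase downstream of ATR, had no row under that symbol and was not analysed here. The members fell into 7 roles: 4 genes of damage signalling, 6 of end joining, 13 of homologous recombination, 5 of the Fanconi anaemia pathway, 3 of mismatch repair, 5 of base excision repair and 6 of nucleotide excision repair.

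The 2 groups compared held 3 libraries each: siHnrnpd 1 to 3, from cells given an siRNA against Hnrnpd, which encodes the RNA-binding protein AUF1, and control 1 to 3, from cells given a control siRNA. All 6 libraries came from the same line grown at 37 °C in 5% CO2 in medium with 10% serum, and the labels give no age, sex, siRNA sequence, dose or time after treatment. The siRNA lowered the target and did not remove it. Hnrnpd, listed as Hnrpd, had 187 ± 12.2 counts scaled to library size (CPM) in siHnrnpd libraries and 297 ± 25.9 CPM in control libraries (SD, n = 3 each), or 62.8% of control, with a log2 change of -0.67 (edgeR quasi-likelihood test, p adjusted by Benjamini-Hochberg = 0.0426). With 1 library left out the edgeR adjusted p ran from 0.0458 to 0.319, and it was under 0.05 only without siHnrnpd 2.

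The libraries held 28984535 to 35842904 gene counts, and the members together took 0.151% to 0.165% of them. Nothing in the labels says whether replicates were separate cultures, so the p-values rest on a spread that may be technical. The labels name rat as the organism and the tables carry rat gene IDs, although the line is usually described as murine. The species of the reads cannot be read from these tables, and levels compared between genes carry that limit. Of 11 hair cell markers, 7 had a row and 2 passed the filter. Otof, Slc26a5, Espn, Gfi1 and Calb2 had between 0 and 7 counts in any library. The 2 that passed the filter had summed CPM of 31.8 to 37.2 in siHnrnpd libraries and 33.5 to 41.5 in control libraries. Of 11 fibroblast markers 8 passed, with summed CPM of 4750 to 5843 in siHnrnpd libraries and 4383 to 4926 in control libraries. Of those 8, 2 were higher at an unadjusted p under 0.05 by edgeR (25%). Of 11 supporting cell markers 6 passed, and 2 of those 6 were higher at that threshold (33.3%). Over all genes tested, 5.84% were higher at an unadjusted p under 0.05. The summed CPM of the supporting cell markers was 116 to 154 in siHnrnpd libraries and 130 to 140 in control libraries. Their mean log2 CPM lay 0.30 above the control mean in siHnrnpd 3. The part of these cell type markers in the results below was not tested. The library siHnrnpd 3 stood apart in interferon-stimulated genes, whose mean log2 CPM over 21 tested genes lay 2.04 under the control mean there (-2.04), while the differences were -0.61 for siHnrnpd 1 and -0.46 for siHnrnpd 2.

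Cells meet breaks, crosslinks, mispaired bases and damaged bases with separate repair routes. Double-strand breaks are sensed by the kinases ATM, ATR and DNA-PK and are either joined end to end, with the Ku heterodimer holding the ends, or copied from the sister chromatid by homologous recombination. The Fanconi anaemia proteins act on crosslinks between the strands, mismatch repair corrects replication errors, and the excision routes remove altered bases or bulky lesions. In the inner ear they are studied mainly for the damage that platinum drugs do to hair cells.

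Levels were compared between genes as FPKM, which divides by the length of the gene model. Apex1, which cuts the DNA backbone at sites that have lost a base, was the most abundant member at 132 ± 5.64 FPKM in siHnrnpd libraries and 127 ± 1.27 FPKM in control libraries (SD, n = 3 each). Its mean over all 6 libraries, 130 FPKM, was above 96.0% of the genes listed with an FPKM value. A group of 5 members followed at similar levels, with means over 6 libraries of 37.8 FPKM for Ung, 36.8 FPKM for Xrcc1, 36.4 FPKM for Parp1, 36.4 FPKM for Ercc1 and 34.0 FPKM for Xrcc6. Across the 6 libraries the FPKM of Ung, Xrcc1, Parp1 and Ercc1 overlapped, so their order is within the spread. At the other end lay Ercc4, a subunit of the nuclease that cuts beside bulky lesions, at 0.72 FPKM, and Lig4, the ligase of end joining, at 1.14 FPKM. Partners of known complexes were far apart: Ercc1, the other subunit of the Ercc4 nuclease, had 36.4 FPKM, and Xrcc4, which binds Lig4, had 13.6 FPKM. In the rat assembly GRCr8 a gene named Polr1g overlaps Ercc1. Without a stated strand setting, reads of Ercc1 and Polr1g cannot be told apart. The apical kinases were low on this scale, with 1.72 FPKM for Atm, 1.47 FPKM for Atr and 2.38 FPKM for Prkdc, the catalytic subunit of DNA-PK.

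**Figure D1:**
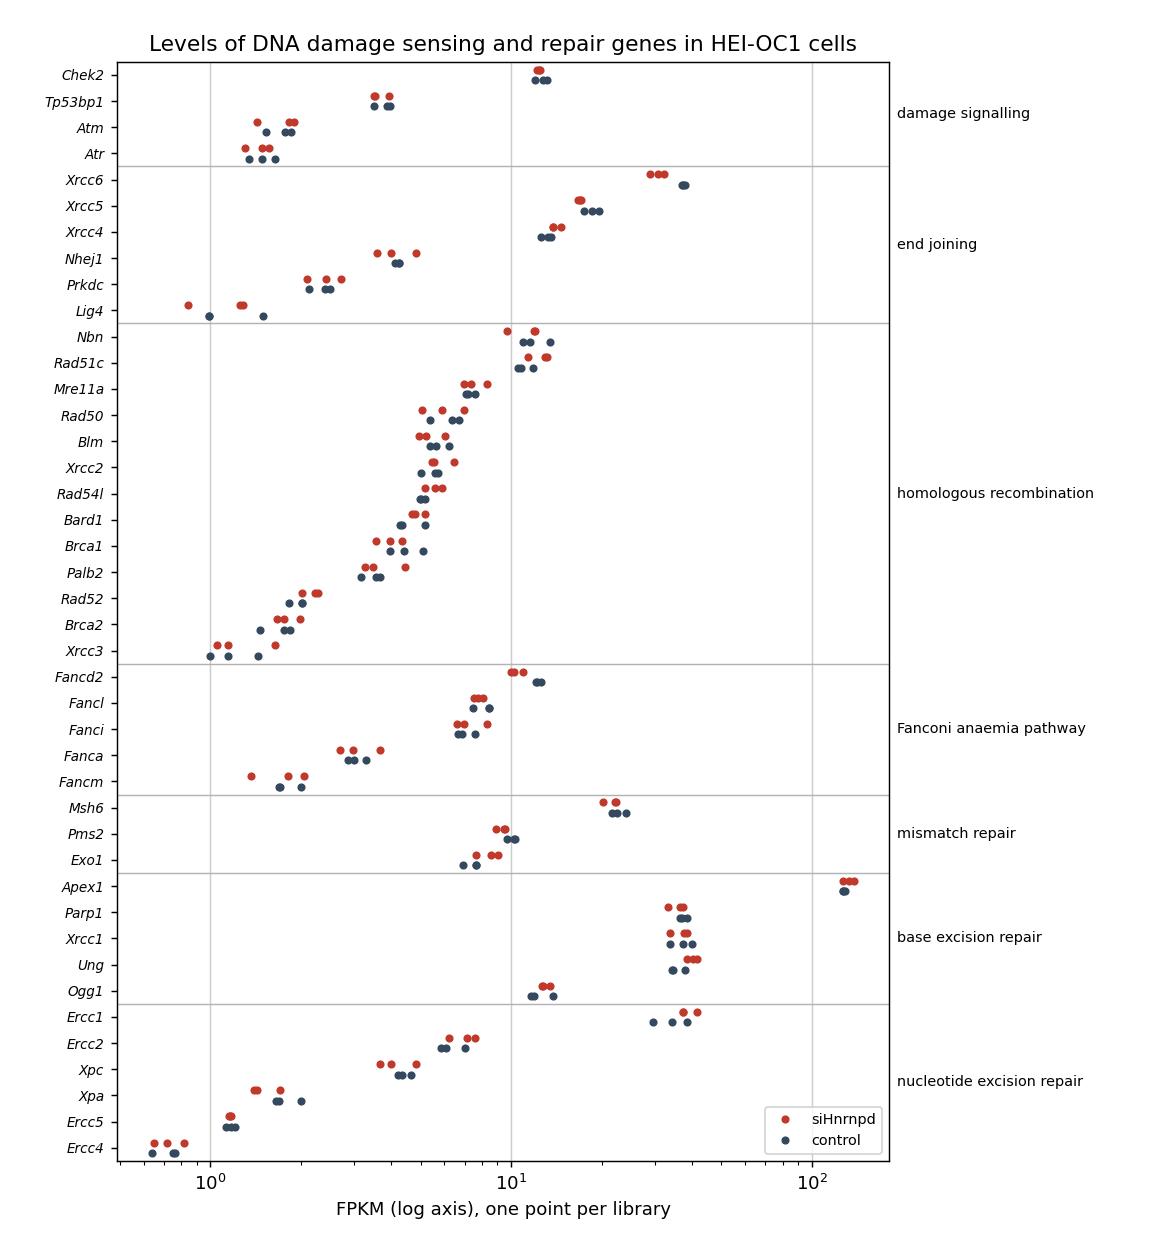
FPKM on a log axis of the 42 members with a row, by role, with a point for each of the 3 siHnrnpd libraries (red) and the 3 control libraries (dark). Apex1 lies near 130 FPKM and Ercc4 near 0.72 FPKM, and for most members the points of the groups overlap.

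The comparison asks whether repair transcripts differ in level when Hnrnpd is reduced. Of the 42 members, 0 were called by edgeR at an adjusted p under 0.05, where 0.0815% of all genes tested were called (0.0245% higher, 0.0571% lower). At an unadjusted p under 0.05 there were 3 members, 1 higher (Ung) and 2 lower (Xrcc6 and Fancd2), against 11.0% of all genes tested (5.84% higher, 5.20% lower), so the members' 7.14% was no larger a share than the background. DESeq2 called 1 member, Xrcc6, as lower (adjusted p = 0.0157), where it called 1.52% of the genes it tested. In 7 members the CPM of the groups did not overlap, or 16.7%, next to 17.0% of all genes tested (8.42% higher, 8.57% lower). Rad54l and Ung were higher in that way, and Xrcc6, Xrcc5, Fancd2, Pms2 and Parp1 lower. In bulk RNA, fewer cells making a transcript and less of it per cell cannot be told apart.

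The estimates were small and most of their intervals narrow. The log2 changes of the members ran from -0.30 (Xrcc6) to 0.16 (Exo1), 20 above 0 and 22 below, with a median of -0.024 against 0.0054 over all genes tested. The median size of the change regardless of sign was 0.081 in members and 0.10 over all genes. The 95% interval of the log2 change lay within a 1.5-fold change either way in 41 of the 42 members, or 97.6%, against 76.4% of all genes tested. Xpa was the exception, with an interval of -0.63 to 0.13, and all 42 intervals lay within 2-fold. The widest interval, -0.44 to 0.58 for Xrcc3, ended just inside the 1.5-fold bound, and that of Lig4 ran from -0.54 to 0.43. An uncalled member may therefore still differ by less than those bounds.

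**Figure D2:**
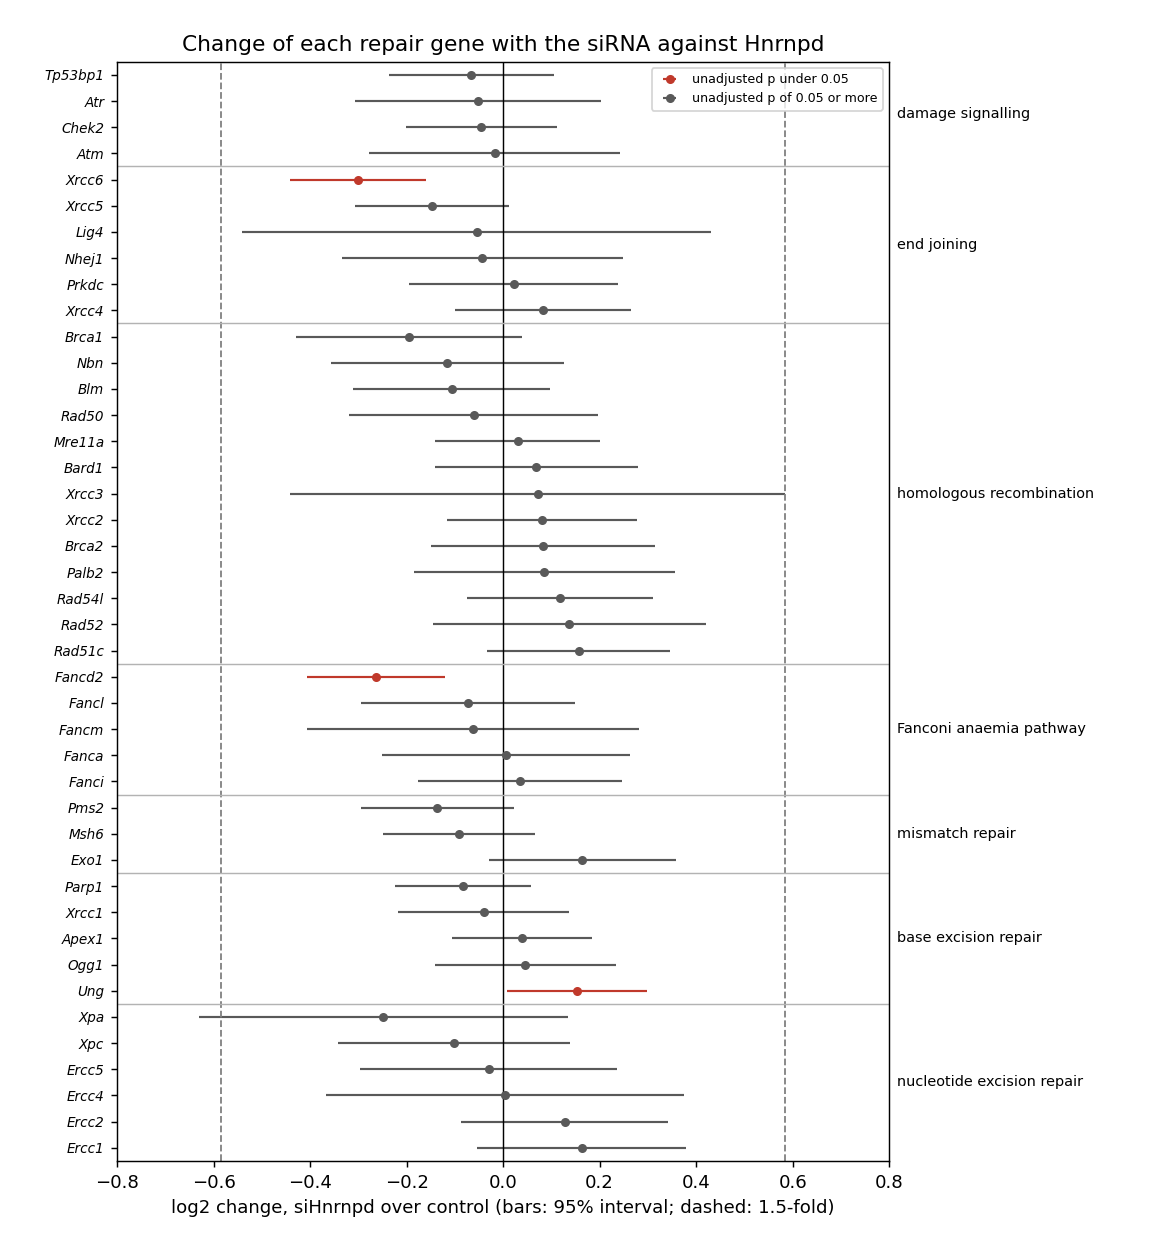
log2 change of each member, siHnrnpd over control, from edgeR, by role; bars are 95% intervals and dashed lines mark 1.5-fold. The 3 members at an unadjusted p under 0.05 (Xrcc6, Fancd2 and Ung) are red, and the interval of Xpa is the one that passes a dashed line.

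The 4 damage signalling genes had log2 changes between -0.066 and -0.018. Tp53bp1, the chromatin reader that steers breaks towards end joining, had 25.8, 26.1 and 28.1 CPM in siHnrnpd 1 to 3 and 28.6, 26.3 and 28.8 CPM in control 1 to 3. Chek2, the kinase activated by ATM, had 29.7, 30.1 and 28.6 CPM in siHnrnpd 1 to 3 and 31.6, 29.2 and 30.2 CPM in control 1 to 3. Atr, which answers to single-stranded DNA, had 13.3, 15.3 and 15.7 CPM in siHnrnpd 1 to 3 and 16.9, 15.5 and 13.5 CPM in control 1 to 3. The groups overlapped in all 3 of these genes, and the log2 changes were -0.066, -0.045 and -0.051 in the order given (edgeR adjusted p = 0.797, 0.851 and 0.900). The remaining kinase, Atm, had 20.5, 26.5 and 26.8 CPM in siHnrnpd 1 to 3, around the 22.6 to 26.9 CPM of the control libraries. In total 0 of the 4 signalling genes reached an unadjusted p under 0.05, against 11.0% of all genes tested.

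In end joining, both Ku genes had lower CPM in every siHnrnpd library than in any control library, Xrcc6 by the larger margin, and neither was called by edgeR. Xrcc6 (ENSRNOG00000006392, chromosome 7), which encodes the smaller Ku subunit, had 79.1, 75.0 and 81.0 CPM in siHnrnpd 1 to 3 and 95.5, 97.8 and 96.3 CPM in control 1 to 3. Every siHnrnpd library lay under every control library, and the siHnrnpd mean was 81.2% of the control mean. This gave a log2 change of -0.30 (SE 0.063, 95% interval -0.44 to -0.16; edgeR adjusted p = 0.156). The authors' FPKM showed the same separation, with 30.7 ± 1.68 FPKM in siHnrnpd libraries and 37.3 ± 0.50 FPKM in control libraries (SD, n = 3 each). Leaving out each library gave log2 changes of -0.34 to -0.27 and edgeR adjusted p from 0.111 to 0.681.

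Xrcc5 (ENSRNOG00000016105, chromosome 9), the larger Ku subunit, had 49.8, 51.5 and 49.8 CPM in siHnrnpd 1 to 3 and 59.0, 56.6 and 51.7 CPM in control 1 to 3. The groups did not overlap, although siHnrnpd 2 and control 3 were nearly level, and the log2 change of -0.15 had an interval of -0.31 to 0.013 (edgeR adjusted p = 0.481). Xrcc4 had 24.6, 23.3 and 22.5 CPM in siHnrnpd 1 to 3 and 22.4, 23.3 and 20.9 CPM in control 1 to 3, with a log2 change of 0.083 (edgeR adjusted p = 0.751). These values overlapped between the groups. Prkdc, Lig4 and Nhej1, which bridges Xrcc4 and the ends, had log2 changes of 0.022, -0.055 and -0.043. Lig4 was the least settled of them, with 3.14 to 4.80 CPM in siHnrnpd libraries, 3.65 to 5.62 CPM in control libraries and an interval of -0.54 to 0.43.

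Of the 5 Fanconi genes, Fancd2 was the 1 at an unadjusted p under 0.05 (20%, against 11.0% of all genes tested). Fancd2 (ENSRNOG00000061085, chromosome 4), the protein that is ubiquitinated at crosslinks, had 50.7, 52.6 and 54.3 CPM in siHnrnpd 1 to 3 and 64.4, 63.1 and 61.7 CPM in control 1 to 3. The groups were apart in CPM and in FPKM, where the means were 10.4 ± 0.49 in siHnrnpd libraries and 12.3 ± 0.21 in control libraries (SD, n = 3 each). The fitted log2 change of -0.26 had a 95% interval of -0.41 to -0.12 and an SE of 0.064 (edgeR adjusted p = 0.203; DESeq2 adjusted p = 0.0763). Leaving out each library gave -0.30 to -0.24, with edgeR adjusted p from 0.186 to 0.755. A gene named Fancd2os overlaps Fancd2 in the rat assembly GRCr8, and without a stated strand setting reads of the pair cannot be told apart.

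Fanci, the partner that clamps onto DNA with Fancd2, had a log2 change of 0.035, with 30.7, 32.9 and 38.0 CPM in siHnrnpd 1 to 3 and 35.6, 32.7 and 30.9 CPM in control 1 to 3. The spread within each Fanci group was larger than the gap between them. Fancl, the ubiquitin ligase subunit, had 14.9, 15.8 and 14.2 CPM in siHnrnpd 1 to 3 and 16.4, 16.6 and 14.3 CPM in control 1 to 3. Fancm, the helicase that anchors the core complex, had 10.4, 15.8 and 13.5 CPM in siHnrnpd 1 to 3 and 15.4, 13.2 and 12.8 CPM in control 1 to 3. Both overlapped between the groups, with log2 changes of -0.073 and -0.063 (edgeR adjusted p = 0.827 and 0.910), and Fanca had 0.0059.

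**Figure D3:**
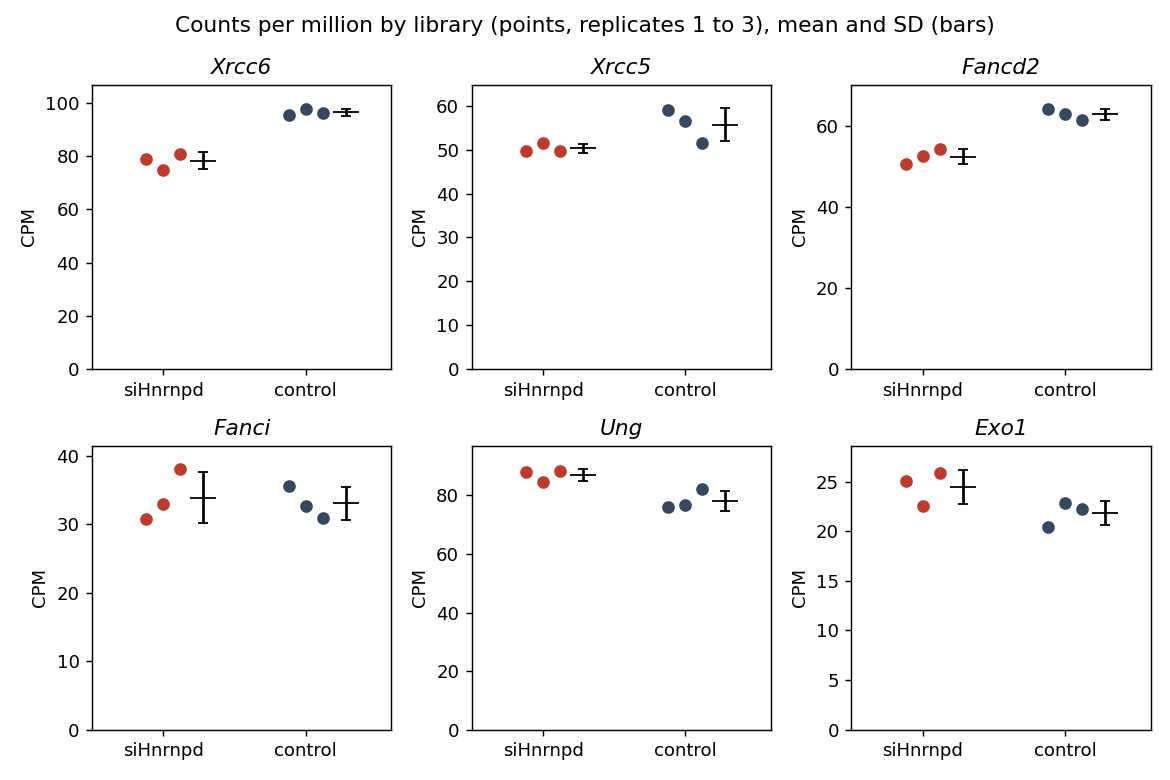
CPM by library from 0 upwards for Xrcc6, Xrcc5, Fancd2, Fanci, Ung and Exo1, with siHnrnpd libraries left of control libraries in each panel and bars for the mean and SD of 3 libraries. The groups are apart in Xrcc6 (75.0 to 81.0 against 95.5 to 97.8 CPM), Xrcc5, Fancd2 and Ung, and they overlap in Fanci and Exo1.

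The start regions of these genes are shown because Xrcc6 and Fancd2 differed most between the groups, Xrcc5 and Fanci are their partners, and Ung was the member at an unadjusted p under 0.05 on the higher side. Each line gives the 250 bases before the gene's start, 5′ to 3′ on the strand of the gene, from RefSeq on the build GRCr8. The chromosomes are 7 for Xrcc6, 9 for Xrcc5, 4 for Fancd2, 1 for Fanci and 12 for Ung, which the labels write as decimals. Capitals mark matches on either strand, merged where they touch. The patterns were TTTNNCGC, called E2F-like here, GGGCGG, the GC box, and CCAAT, the CCAAT box. N stands for any base, so an E2F-like match need not be an E2F site.
Xrcc6 (chr7.0:115422934-115423183, + strand): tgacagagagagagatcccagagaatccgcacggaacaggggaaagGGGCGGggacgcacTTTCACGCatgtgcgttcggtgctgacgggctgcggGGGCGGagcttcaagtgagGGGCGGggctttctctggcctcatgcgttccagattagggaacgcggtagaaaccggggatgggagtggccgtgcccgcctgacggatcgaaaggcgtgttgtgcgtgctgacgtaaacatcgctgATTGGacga
Xrcc5 (chr9.0:81404257-81404506, + strand): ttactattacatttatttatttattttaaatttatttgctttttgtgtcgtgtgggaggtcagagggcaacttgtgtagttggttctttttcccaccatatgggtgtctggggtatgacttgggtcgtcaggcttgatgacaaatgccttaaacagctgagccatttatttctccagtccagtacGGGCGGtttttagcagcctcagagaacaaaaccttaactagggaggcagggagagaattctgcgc
Fancd2 (chr4.0:148234458-148234707, + strand): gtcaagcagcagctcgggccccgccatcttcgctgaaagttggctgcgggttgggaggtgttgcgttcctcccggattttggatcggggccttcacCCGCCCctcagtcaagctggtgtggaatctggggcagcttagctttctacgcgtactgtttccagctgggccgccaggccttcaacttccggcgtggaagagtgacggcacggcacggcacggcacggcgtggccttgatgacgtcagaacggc
Fanci (chr1.0:142736403-142736652, + strand): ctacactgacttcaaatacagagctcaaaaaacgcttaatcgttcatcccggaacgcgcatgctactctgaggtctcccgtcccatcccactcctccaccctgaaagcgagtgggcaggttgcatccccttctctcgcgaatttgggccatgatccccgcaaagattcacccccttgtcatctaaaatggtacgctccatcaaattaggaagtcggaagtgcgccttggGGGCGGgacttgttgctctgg
Ung (chr12.0:48154046-48154295, - strand): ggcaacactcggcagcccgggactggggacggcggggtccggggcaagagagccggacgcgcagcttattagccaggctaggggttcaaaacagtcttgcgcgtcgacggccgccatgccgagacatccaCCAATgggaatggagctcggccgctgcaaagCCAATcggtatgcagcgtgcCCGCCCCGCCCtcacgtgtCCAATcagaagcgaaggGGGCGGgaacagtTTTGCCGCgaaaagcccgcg
The Xrcc6 stretch held 1 E2F-like match, 3 GC boxes and 1 CCAAT box, while Xrcc5, Fancd2 and Fanci each held 1 GC box and 0 matches to the others. Ung held 1 E2F-like match, 3 GC boxes and 3 CCAAT boxes. A sequence was matched for 35 of the 43 listed members, of which 25 held a GC box (71.4%), 14 a CCAAT box (40.0%) and 6 an E2F-like match (17.1%). Chek1, which had no row in the count table, is among the 35 and among the 6. The shares over 21851 protein-coding genes with windows of the same length were 38.9%, 35.0% and 4.92% for those motifs in the same order. Those genes include some that were not tested here, and the shares over the genes tested were not computed. These matches describe letters and are not shown to be bound. The sequences are of the rat, and the species limit above applies to them, so the start regions in these cells may differ.

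Homologous recombination, the largest role with 13 genes, gave 0 members at an unadjusted p under 0.05, against 11.0% of all genes tested. It had 9 log2 changes above 0 and a median of 0.071, which was -0.039 without siHnrnpd 3. Brca1, which promotes resection of broken ends, had 27.5, 31.0 and 33.0 CPM in siHnrnpd 1 to 3 and 39.8, 31.2 and 33.7 CPM in control 1 to 3. Rad51c, a paralog that helps load the strand exchange filament, had 31.1, 36.4 and 34.6 CPM in siHnrnpd 1 to 3 and 32.8, 30.3 and 28.6 CPM in control 1 to 3. Rad54l, the motor that drives strand exchange, had 19.1, 17.1 and 17.8 CPM in siHnrnpd 1 to 3 and 16.3, 16.7 and 16.7 CPM in control 1 to 3. Of these, Rad54l alone did not overlap between the groups in CPM, by a narrow gap, and in FPKM siHnrnpd 2 and control 3 were level at 5.18. Their log2 changes were -0.19, 0.16 and 0.12, with 95% intervals of -0.43 to 0.040, -0.034 to 0.35 and -0.074 to 0.31 (edgeR adjusted p = 0.527, 0.532 and 0.645). The MRN complex, which finds and tethers broken ends, had log2 changes of 0.030 for Mre11a, -0.061 for Rad50 and -0.12 for Nbn. Bard1, Palb2 and Brca2, which work with Brca1, had 0.069, 0.086 and 0.082, and Blm, a helicase that untangles joined molecules, had -0.11.

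Mismatch repair had 3 members. Msh6, a subunit of the mismatch sensor, had 104, 114 and 112 CPM in siHnrnpd 1 to 3 and 124, 113 and 114 CPM in control 1 to 3. Pms2, the nicking subunit, had 30.3, 32.8 and 31.4 CPM in siHnrnpd 1 to 3 and 35.6, 35.5 and 32.9 CPM in control 1 to 3, with siHnrnpd 2 just under control 3. Exo1, the exonuclease that removes the mispaired strand, had 25.0, 22.5 and 25.9 CPM in siHnrnpd 1 to 3 and 20.4, 22.8 and 22.2 CPM in control 1 to 3. Exo1 and Msh6 overlapped between the groups. The log2 changes were -0.091 for Msh6, -0.14 for Pms2 and 0.16 for Exo1, with edgeR adjusted p of 0.669, 0.508 and 0.519.

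Base excision repair held the most abundant member, Apex1, and the 1 member higher at an unadjusted p under 0.05, Ung. That was 20% of the 5 genes of this role, against 11.0% of all genes tested in either direction. Ung (ENSRNOG00000000692, chromosome 12), which removes uracil from DNA, had 87.9, 84.6 and 88.5 CPM in siHnrnpd 1 to 3 and 75.9, 76.6 and 82.2 CPM in control 1 to 3. All siHnrnpd libraries were above all control libraries, at 111% of the control mean. The log2 change of 0.15 had an SE of 0.065 and an interval of 0.0083 to 0.30 (edgeR adjusted p = 0.432), and it was 0.12 to 0.19 with 1 library left out. Ung was no longer at an unadjusted p under 0.05 with DESeq2, with no filter on low counts or with a block for the replicate number. The same held with any 1 library left out other than control 3. Parp1, which marks breaks with poly(ADP-ribose), had 165, 153 and 165 CPM in siHnrnpd 1 to 3 and 166, 171 and 173 CPM in control 1 to 3, a narrow separation with a log2 change of -0.083 (edgeR adjusted p = 0.664). In FPKM the Parp1 groups overlapped, with 33.3 to 37.2 in siHnrnpd libraries and 36.3 to 38.5 in control libraries. Apex1 had 205, 199 and 184 CPM in siHnrnpd 1 to 3 and 190, 193 and 190 CPM in control 1 to 3, with overlap and a log2 change of 0.039 (edgeR adjusted p = 0.864). Ogg1, the glycosylase for oxidised guanine, and Xrcc1, the scaffold of the route, had 0.046 and -0.041.

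Nucleotide excision repair gave 3 log2 changes above 0 and 3 below. At an unadjusted p under 0.05 were 0 members, against 11.0% of all genes tested. Ercc1 had 51.9, 46.8 and 45.3 CPM in siHnrnpd 1 to 3 and 37.4, 43.7 and 47.5 CPM in control 1 to 3. Ercc2, a helicase of TFIIH, had 31.5, 26.1 and 29.1 CPM in siHnrnpd 1 to 3 and 24.5, 25.8 and 28.9 CPM in control 1 to 3. Xpa, which verifies the lesion, had 1.97, 2.42 and 1.96 CPM in siHnrnpd 1 to 3 and 2.83, 2.37 and 2.35 CPM in control 1 to 3. The groups overlapped in all 3, with log2 changes of 0.16, 0.13 and -0.25 (edgeR adjusted p = 0.564, 0.656 and 0.622). Xpa rested on 64 to 85 counts in a library, and its interval was the widest of those given in full. Xpc, the lesion finder, had -0.10, and the nucleases Ercc5 and Ercc4 had -0.030 and 0.0041.

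Partner genes were set against each other within each library, which cancels scaling. The ratio of Fancd2 to Fanci in FPKM was 1.51, 1.46 and 1.31 in siHnrnpd 1 to 3 and 1.66, 1.77 and 1.83 in control 1 to 3, so the groups did not overlap. The ratio of Brca1 to Bard1, which form a ubiquitin ligase together, was 0.758, 0.825 and 0.840 in siHnrnpd 1 to 3 and 1.17, 0.921 and 0.848 in control 1 to 3, apart by a small margin at control 3. Both gave an exact two-sided permutation p of 0.1, the smallest that 3 against 3 libraries allow, or 0.25 after Benjamini-Hochberg adjustment over the 5 ratios compared. Xrcc6 over Xrcc5 was 1.82 ± 0.11 in siHnrnpd libraries and 2.02 ± 0.14 in control libraries (SD, n = 3 each; exact permutation p = 0.2), with overlap. Mre11a over Rad50 and Nbn over Rad50 differed by 0.094 and -0.051 on the log2 scale (exact permutation p = 0.5 and 0.7). The ratios are of RNA, so they compare libraries and not protein amounts, and the species limit above applies to their size. In GRCr8, Fancd2os overlaps Fancd2, Polg overlaps Fanci and Ankrd49 overlaps Mre11a, among others. Without a stated strand setting, reads of these pairs cannot be told apart.

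**Figure D4:**
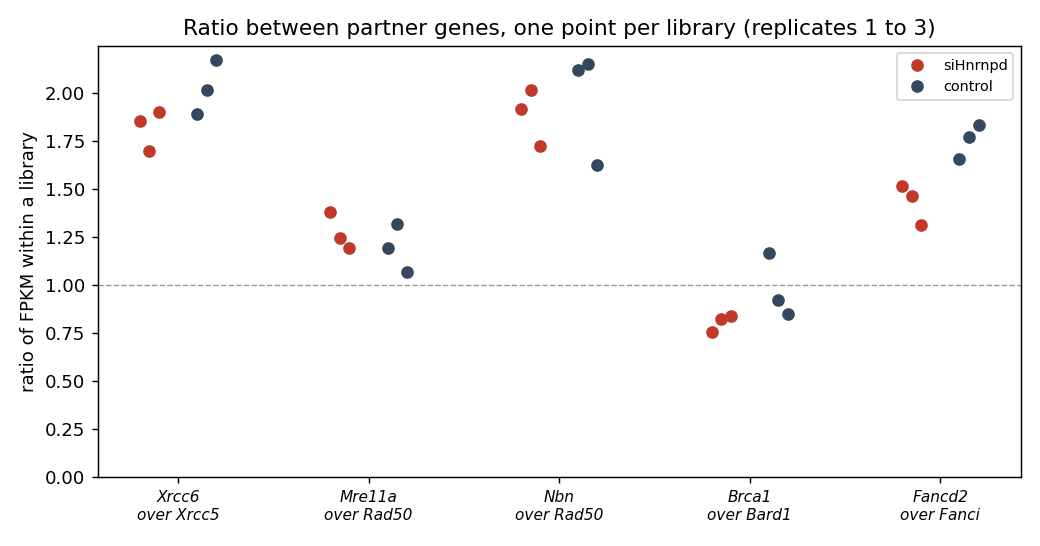
Ratio of FPKM between partner genes within each library, siHnrnpd left of control in each pair, with a dashed line at 1. Fancd2 over Fanci lies at 1.31 to 1.51 in siHnrnpd libraries and 1.66 to 1.83 in control libraries, while the Mre11a and Nbn ratios overlap.

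Libraries of the same group also differed over the members. The library siHnrnpd 1 had the lowest CPM of the 6 for 16 of the 42 members (38.1%), against 20.5% of all genes tested, and siHnrnpd 3 had the highest for 14 (33.3%), against 18.6%. Control 1 had the highest for 13 (31.0%), against 24.0% of all genes. The mean log2 CPM over the members, relative to the control mean, came to -0.084, -0.018 and 0.051 for siHnrnpd 1 to 3, and 0.040, -0.038 and -0.0021 for control 1 to 3. The groups overlapped on that summary. Without siHnrnpd 1 the median log2 change of the members was 0.046, without siHnrnpd 2 it was 0.0052 and without control 1 it was 0.0094, so its sign rests on single libraries. The medians of end joining, Fanconi and nucleotide excision repair genes were -0.049, -0.063 and -0.013 with all libraries, and 0.012, 0.034 and 0.020 without siHnrnpd 1. By role, siHnrnpd 1 was low in Fanconi genes (-0.19), end joining (-0.16) and damage signalling (-0.15), and not in base excision repair (0.060).

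Gene length was set beside these differences. The gene model length implied by counts and FPKM had a median of 3.89 kb in members and 2.72 kb over all genes tested. The Spearman correlation across the 42 members between this length and a gene's log2 CPM relative to the control mean was -0.44, -0.078 and 0.14 for siHnrnpd 1 to 3, and 0.42, -0.40 and -0.035 for control 1 to 3. It was near 0 in siHnrnpd 2 and control 3. Over all 12268 genes the same values were -0.20, -0.041 and 0.085 for siHnrnpd 1 to 3, and 0.20, -0.26 and -0.056 for control 1 to 3. Points in a library share its depth and the same control mean, so these are descriptions. Among the longest members, Prkdc (14.9 kb), Atm (14.4 kb) and Atr (10.2 kb) had their lowest CPM in siHnrnpd 1, whereas Brca2 (12.1 kb) had it in control 2. The part of length in any difference was not tested.

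**Figure D5:**
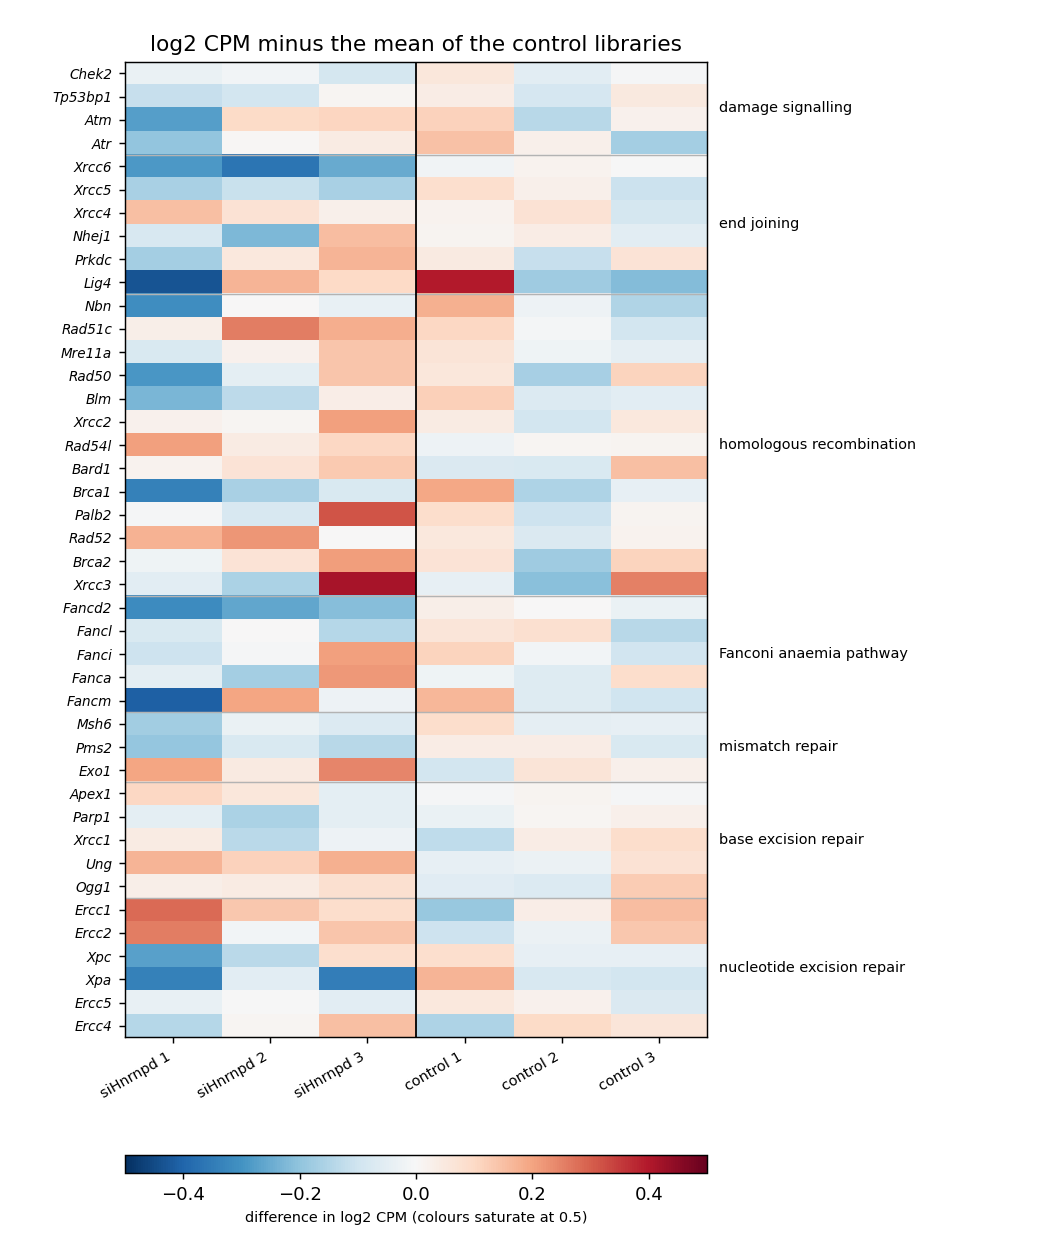
Difference of each member's log2 CPM from the mean of the control libraries, by role, with siHnrnpd 1 to 3 left of control 1 to 3; colours saturate at 0.5. Xrcc6 and Fancd2 are blue in all 3 siHnrnpd libraries, and many damage signalling, end joining and recombination genes are blue in siHnrnpd 1 and red in control 1.

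The wider pathway was covered by 106 further repair genes, of which 98 had a row and were tested. By edgeR 0 were called, and 10 had an unadjusted p under 0.05 (10.2%, against 11.0% of all genes tested), 5 higher and 5 lower. DESeq2 called 0 of them. Timeless, which protects replication forks, had 62.8, 64.5 and 69.0 CPM in siHnrnpd 1 to 3 and 80.1, 76.6 and 76.7 CPM in control 1 to 3, with a log2 change of -0.25 (edgeR adjusted p = 0.256). Rpa1, the large subunit of the complex that coats single-stranded DNA, had 216, 211 and 202 CPM in siHnrnpd 1 to 3 and 250, 243 and 242 CPM in control 1 to 3, with a log2 change of -0.22 (edgeR adjusted p = 0.263). Both were apart between the groups. Alkbh3, which reverses alkylated bases, had 76.4, 71.9 and 56.8 CPM in siHnrnpd 1 to 3 and 54.6, 53.9 and 52.8 CPM in control 1 to 3, a log2 change of 0.35 (edgeR adjusted p = 0.300), with siHnrnpd 3 the nearest to the control libraries. The replication checkpoint kinase Wee1 had a log2 change of -0.28 with overlapping groups (edgeR adjusted p = 0.397).

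Genes of DNA replication, a process that shares factors with Fancd2, Timeless and Rpa1, were measured beside them. Of 28 tested replication genes, 23 had a negative log2 change, next to 5926 of all 12268 genes tested, and the median was -0.056. At an unadjusted p under 0.05 was 1 of the 28, lower (3.57%, against 11.0% of all genes either way and 5.20% lower). In 6 of the 28 the CPM of the groups did not overlap, all lower (21.4%, against 8.57% of all genes lower). Their summed CPM was 4169 to 4341 in siHnrnpd libraries and 4310 to 4467 in control libraries. For 17 mitotic genes the median was -0.0030, with 0 at an unadjusted p under 0.05. The part of replication or cycling in the lower Xrcc6 and Fancd2 values was not tested. With 1 library left out, the log2 changes ran from -0.34 to -0.27 for Xrcc6 and from -0.30 to -0.24 for Fancd2. The values of -0.34 and -0.30 came without siHnrnpd 3, the library that stood apart in interferon-stimulated genes. The part of that library in these values was not tested.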

How the data were processed

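RNA of 6 libraries was sequenced as 150 nt paired ends, and the authors aligned the reads with TopHat2, per the submitters' processing notes, which also name the build mRatBN7.2. Not given in the sources used here: the aligner's version, the counter, the strand setting and the annotation. The deposited tables hold whole-number counts per gene, not normalized, and FPKM computed by the authors. Columns were matched to samples by siRNA name and replicate number, and 0 stayed unmatched.

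The main test was edgeR 4.0.16 under R 4.3.3 on the raw counts (filterByExpr, TMM scaling, group as the only term, Benjamini-Hochberg over 12268 genes). CPM use TMM-scaled library sizes, and 95% intervals use the test's SE and degrees of freedom. Alternatives were DESeq2 1.42.0, limma-voom (limma 3.58.1), other scalings and filters, each library left out in turn, a block for the replicate number, and limma with log2(FPKM + 1) or log2(FPKM + 0.1), a scale that understates changes of low genes. No 2 libraries matched within sampling noise. The scripts were checked on simulated counts. The members, lists and tests were chosen with earlier results of these data known. Members with an unadjusted p under 0.05 and up to 3 of each role with the smallest p are given in full. Further repair genes are named among up to 10 with the smallest p, and some are not reported here. Of 43 members, 24 overlap another gene in the RefSeq annotation of GRCr8, where such reads could not be told apart.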

Additional observations from a re-analysis of the deposited data

How the results depend on the processing

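Among the 21 members given in full, 331 of 336 values under 16 alternatives kept their direction and their side of the threshold. The exceptions were Xrcc6, called by DESeq2 (adjusted p = 0.0157), and Atr and Fancm, whose log2 changes turned positive without siHnrnpd 1 or control 1 (Atr 0.0191 and 0.0124, Fancm 0.0864 and 0.0135), the top of ranges that began at -0.13 for Atr and -0.21 for Fancm. Members called numbered 1 with DESeq2 and 0 under the other alternatives, and members at an unadjusted p under 0.05 numbered 2 to 5 with 1 library left out, 5 without control 3. The median log2 change of the members ran from -0.076 (without siHnrnpd 3) to 0.046 (without siHnrnpd 1). Over all genes, 10 were called (3 higher, 7 lower), 168 with DESeq2 (59 higher, 109 lower), 6 with upper-quartile scaling (3 higher, 3 lower), 147 with no filter (46 higher, 101 lower), 5 on log2(FPKM + 0.1), 0 on log2(FPKM + 1) with or without the filter, and 0 to 14 with 1 library left out (0 without any 1 control library, 1 without siHnrnpd 1, 7 without siHnrnpd 2, 14 without siHnrnpd 3). Hnrnpd was -0.65 on log2(FPKM + 1) with or without the filter (limma adjusted p = 0.0508 and 0.137) and -0.74 to -0.63 with 1 library left out. Same-numbered libraries did not deviate together (correlations of -0.26, 0.14 and 0.10, with 2 of 6 libraries closest to their own number). With the replicate block, 0 genes were called, Hnrnpd was -0.67 (edgeR adjusted p = 0.0873), Xrcc6 -0.30 (0.375) and Fancd2 -0.26 (0.452). The causes were not tested.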

Other observations

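Targets of p53, whose induction is a usual sign of damage signalling, had 13 of 16 tested genes with a log2 change above 0, next to 6342 of all 12268 genes tested, and a median of 0.10. By edgeR 0 were called, and 3 had an unadjusted p under 0.05 (18.8%, against 11.0% of all genes), 2 higher and 1 lower. DESeq2 called 2 of the 16, where it called 1.52% of the genes it tested. The mean log2 CPM of the list relative to the control mean was 0.17, 0.15 and -0.022 for siHnrnpd 1 to 3, and 0.015, -0.0047 and -0.010 for control 1 to 3, so siHnrnpd 3 lay among the control libraries. The 3 genes at an unadjusted p under 0.05 are named here after their values were seen. Plk3, a stress-responsive kinase, had 39.8, 36.6 and 32.7 CPM in siHnrnpd 1 to 3 and 24.7, 26.3 and 29.9 CPM in control 1 to 3 (log2 change 0.43, edgeR adjusted p = 0.183, DESeq2 adjusted p = 0.0169). Bax, which opens the outer mitochondrial membrane in apoptosis, had 115, 107 and 103 CPM in siHnrnpd 1 to 3 and 81.9, 89.4 and 101 CPM in control 1 to 3 (log2 change 0.25, edgeR adjusted p = 0.341, DESeq2 adjusted p = 0.260). Plk2, a related kinase, was on the other side, with 12.5, 16.4 and 14.8 CPM in siHnrnpd 1 to 3 and 20.6, 20.1 and 19.1 CPM in control 1 to 3 (log2 change -0.46, edgeR adjusted p = 0.203, DESeq2 adjusted p = 0.0188). Cdkn1a and Mdm2, the best known targets, had log2 changes of 0.022 and 0.013 with overlapping groups.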
